A study of Homo sapiens with 12 samples.

Results

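The 48 genes described here encode the G1/S and DNA replication machinery: regulators of entry into S phase, the proteins that license and fire replication origins, the replicative polymerases and their clamp, the enzymes that make deoxynucleotides, and a histone chaperone. They were taken from a list of gene names, and all 48 were found once each among the 63241 genes of the deposited expression table. RNA came from HEPM cells, an established line grown from the mesenchyme of a human embryonic palate, collected 6 h after an MSX1 plasmid was introduced. Of the 4 plasmids, 1 encoded MSX1 with an arginine changed to serine (R157S), 1 with the same arginine changed to lysine (R157K), 1 with it changed to phenylalanine (R157F), and 1 the wild-type protein (WT), with 3 libraries of each. All groups therefore carried an MSX1 plasmid on top of the endogenous gene, and cells without one were not analysed here, so WT MSX1 is what each variant is set against. The labels give the replicate number of each library as a batch, do not say that libraries of a group came from separate cultures, and give no share of transfected cells.

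Cells that pass from G1 into S phase release E2F transcription factors from the retinoblastoma protein, and E2F then drives a shared programme of replication genes, many of which have an E2F motif close to their start site. Origins are licensed in G1, when ORC, CDC6 and CDT1 load the ring of MCM2 to MCM7 onto DNA, and are fired in S phase, when CDC45 and GINS join that ring to form the active helicase. Polymerase alpha with primase then lays down primers, RFC loads the PCNA clamp, and polymerases delta and epsilon copy the strands. Growth of the palatal shelves depends on proliferation of the mesenchyme that HEPM cells come from, and MSX1, a homeobox transcription factor, is known for its part in palate and tooth development. The series title ties MSX1 to methylation by PRMT1, an arginine methyltransferase, and to phase separation of the methylated protein.

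The E2F motif was looked for in the RefSeq promoters of these genes. Replication genes are known for this motif, so a high share follows from how the list was chosen and is given as a description. Each promoter window ran from 250 bases before to 50 bases after a gene's start, and the letters searched were TTTCCCGC, TTTCGCGC, TTTGGCGC and TTTGCCGC on both strands, where neighbouring matches may overlap. Of the 41 genes with an entry, 24 (58.5%) held at least 1 match, against 1090 of 27305 genes (3.99%) in the whole table. Among 60 further replication genes, described below, 49 had an entry and 14 of these (28.6%) held a match. MCM5, CDK2, MCM4, RPA2, CCNE2, E2F8 and GINS4 had no entry. A match is a description of the letters and does not show binding. The stretches below, from RefSeq on GRCh38.p14, are those of the 6 described members with the lowest p of the 4-plasmid test among those with a match that could be shown. They cover POLA1 at chrX:24693741-24693828 (plus strand), MCM6 at chr2:135876482-135876569 (minus strand), E2F3 at chr6:20401786-20401873 (plus strand), POLA2 at chr11:65261869-65261956 (plus strand), RFC3 at chr13:33818054-33818141 (plus strand) and PCNA at chr20:5126634-5126721 (minus strand). Each is written 5′ to 3′ on the gene's own strand, lies upstream of the start, and has the E2F letters in capitals, and in MCM6 the capitals hold 2 overlapping matches on opposite strands.
POLA1: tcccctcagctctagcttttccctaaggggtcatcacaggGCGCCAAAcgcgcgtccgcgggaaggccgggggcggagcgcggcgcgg
MCM6: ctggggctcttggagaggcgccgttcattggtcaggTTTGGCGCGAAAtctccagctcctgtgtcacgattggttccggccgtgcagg
E2F3: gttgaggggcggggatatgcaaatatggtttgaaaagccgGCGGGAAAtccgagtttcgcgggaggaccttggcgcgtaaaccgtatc
POLA2: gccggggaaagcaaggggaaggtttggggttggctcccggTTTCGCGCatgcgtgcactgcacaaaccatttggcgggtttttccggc
RFC3: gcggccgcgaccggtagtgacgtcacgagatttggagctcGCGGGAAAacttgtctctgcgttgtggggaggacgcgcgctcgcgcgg
PCNA: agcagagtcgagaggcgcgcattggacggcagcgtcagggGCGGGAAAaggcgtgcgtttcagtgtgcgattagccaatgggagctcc

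Expression was measured as TPM, the transcript share after allowance for length, in which each library sums to the same total, so a value is a share of that library's transcripts and the read depth is unknown. Differences are given as log2(TPM + 1) values, variant minus WT unless named otherwise. The test was limma, fitted to the 14718 genes that reached 1 TPM in 3 or more libraries, with p-values adjusted over all of them and a value under 0.05 taken as called. All 48 genes passed that filter, with at least 1 TPM in every library and values between 1.41 TPM and 423 TPM. In bulk RNA, fewer cells in S phase and less transcript per cell cannot be told apart. The libraries differed in other ways too. Relative to the mean of all libraries, transcripts rich in G and C ran high in R157K and R157F libraries (Spearman coefficients across genes of 0.19 to 0.67 and 0.60 to 0.70) and low in WT libraries (-0.81 to -0.56), with R157S between (-0.32 to -0.03). Ribosomal protein genes took 11.2% to 13.5% of the total in R157K libraries and 4.42% to 7.62% in the others, and the median gene was lower with R157K than with WT by 0.34 (log2 difference -0.34). WT replicate 2 had the highest mitochondrial share, 9.96%, against 5.31% to 7.55% in the other 11. The 10 mesenchyme and fibroblast markers were all at 1 TPM or more in every library, and summed to 16694 to 17072 TPM with R157S, 14717 to 16856 with R157K, 17303 to 18004 with R157F and 12608 to 14917 with WT. No immune marker of 6 reached 1 TPM in every library, and of the muscle markers MYOD1 and MYOG were at 0 in all while DES ran between 2.44 and 5.86 TPM. Of the 7 epithelial markers, KRT8 and KRT18 alone were at 1 TPM or more in every library, and the list summed to 22.2 to 25.8 TPM with R157S, 22.2 to 30.3 with R157K, 25.0 to 25.4 with R157F and 13.01 to 20.2 with WT. Of the 5 endothelial markers, PECAM1 and TEK were, with sums of 9.90 to 11.7 TPM with R157S, 4.81 to 5.06 with R157K, 5.38 to 7.36 with R157F and 11.9 to 12.2 with WT. Of the 4 neural markers, TUBB3 was, with sums of 197 to 212 TPM with R157S, 169 to 229 with R157K, 233 to 260.1 with R157F and 112 to 190.3 with WT. EPCAM, CDH5 and SOX10, defining markers of these 3 types, stayed at or under 0.50 TPM in all libraries. The part of these differences in the results below was tested only as far as the removal of a trend with GC content and length goes.

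MSX1 transcript, from plasmid and endogenous gene together, was at 642, 386 and 326 TPM in R157S libraries, 563, 333 and 604 TPM in R157K libraries, 984, 627 and 1007 TPM in R157F libraries, and 342, 224 and 446 TPM in WT libraries. The R157F libraries lay above all WT libraries, while R157S and R157K libraries overlapped them. MSX1 was higher with R157F than with WT by 1.39 (SE 0.32, adjusted p = 0.00288, exact two-sided permutation p = 0.1, the smallest that 3 libraries against 3 allow). With the trend with GC content and length removed, limma gave 0.80 (adjusted p = 0.038), and 0.70 (adjusted p = 0.122) without WT replicate 2. With R157F, the changed residue and the level of MSX1 transcript therefore cannot be told apart. The differences for R157S (0.41, adjusted p = 0.335) and R157K (0.58, adjusted p = 0.13) did not pass. The table cannot tell the changed codon, so the plasmids are known from the labels alone.

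Most of the 48 genes had their lowest mean with R157K. Against WT, 31 of the 48 were called lower than with WT and 4 higher (backgrounds over all genes 46.2% and 17.3%). With R157F, 23 were called lower and 10 higher (backgrounds 33.8% and 24.4%). With R157S, 11 were called lower and 0 higher by limma (backgrounds 12.8% and 7.6%), and at an unadjusted p under 0.05 there were 16 lower and 5 higher. These backgrounds are for the adjusted threshold, and no share of all genes is given for unadjusted counts, here or below. As shares of the 48, the counts called lower are above the background in each comparison, and the counts called higher are below it. The median difference of the 48 was -0.63 with R157K against -0.34 over all genes, -0.18 with R157F against -0.08, and -0.11 with R157S against -0.01. The 3 comparisons share the WT libraries. Taken over all 4 plasmids, 42 of the 48 passed limma's F test (background 70.8%).

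Genes with and without the E2F motif were set side by side. Over all genes, 46.2% were called lower and 17.3% higher with R157K, 33.8% lower and 24.4% higher with R157F, and 12.8% lower and 7.6% higher with R157S. With R157K, 2 of the 24 genes with a match were higher than with WT and 14 lower (median log2 difference -0.51), and of the 17 without, 2 were higher and 12 lower (median -0.67). With R157F, 6 of the 24 were higher and 10 lower (median -0.16), and 3 of the 17 were higher and 10 lower (median -0.39). With R157S, 5 of the 24 and 5 of the 17 were lower (medians -0.03 and -0.20). The difference between the classes was not tested.

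These calls differed in how they bore the loss of 1 library. All 31 lower calls with R157K stayed called whichever of the 12 libraries was left out, as did TK1 and POLD1 of the 4 higher ones. Over all genes, lower calls with R157K numbered 6391 to 6773 in these fits. The share of all genes' calls that stayed in every fit is not given here for any comparison, so the counts that stayed have no background. CDT1 was lost without WT replicate 1 (0.47), WT replicate 2 (0.44), R157K replicate 1 (0.43) or R157K replicate 3 (0.44), and LIG1 without WT replicate 2 (0.29), R157K replicate 1 (0.38) or R157K replicate 3 (0.45). With R157F, 16 of the 23 lower calls and 8 of the 10 higher calls stayed. The 7 lower calls that did not were CDK2 (-0.28 without WT replicate 1 or R157F replicate 3), MCM6 (-0.24 and -0.23 without the same libraries), CCNE1 (-0.43 to -0.37 without WT replicate 1 or 2 or R157F replicate 2 or 3), CDC45 (-0.40 to -0.30 without those 4), ORC6 and RRM2 (-0.29 and -0.54 without R157F replicate 2) and RFC5 (-0.30 without R157F replicate 3). The 2 higher calls lost were CHAF1A, without any 1 of the WT or R157F libraries (0.32 to 0.42), and MCM7, without WT replicate 2 (0.22), R157F replicate 1 (0.38) or R157F replicate 3 (0.35). With R157S no call stayed. Of its 11 lower calls, 0 were left without R157S replicate 2 or R157S replicate 3 (backgrounds 0.129% and 0.516%), with 13 and 15 genes lower at an unadjusted p under 0.05, 2 without WT replicate 1 or WT replicate 2 (2.68% and 3.65%) and 5 without R157S replicate 1 (7.92%). There were 7 lower calls without R157K replicate 3, R157F replicate 2 or R157F replicate 3 (9.87%, 9.36% and 9.1%) and 6 without R157F replicate 1 (8.92%). Without WT replicate 3 there were 14 lower and 5 higher (21.5% and 17.6%), and without R157K replicate 2 there were 2 higher (10.4%).

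**Figure D1:**
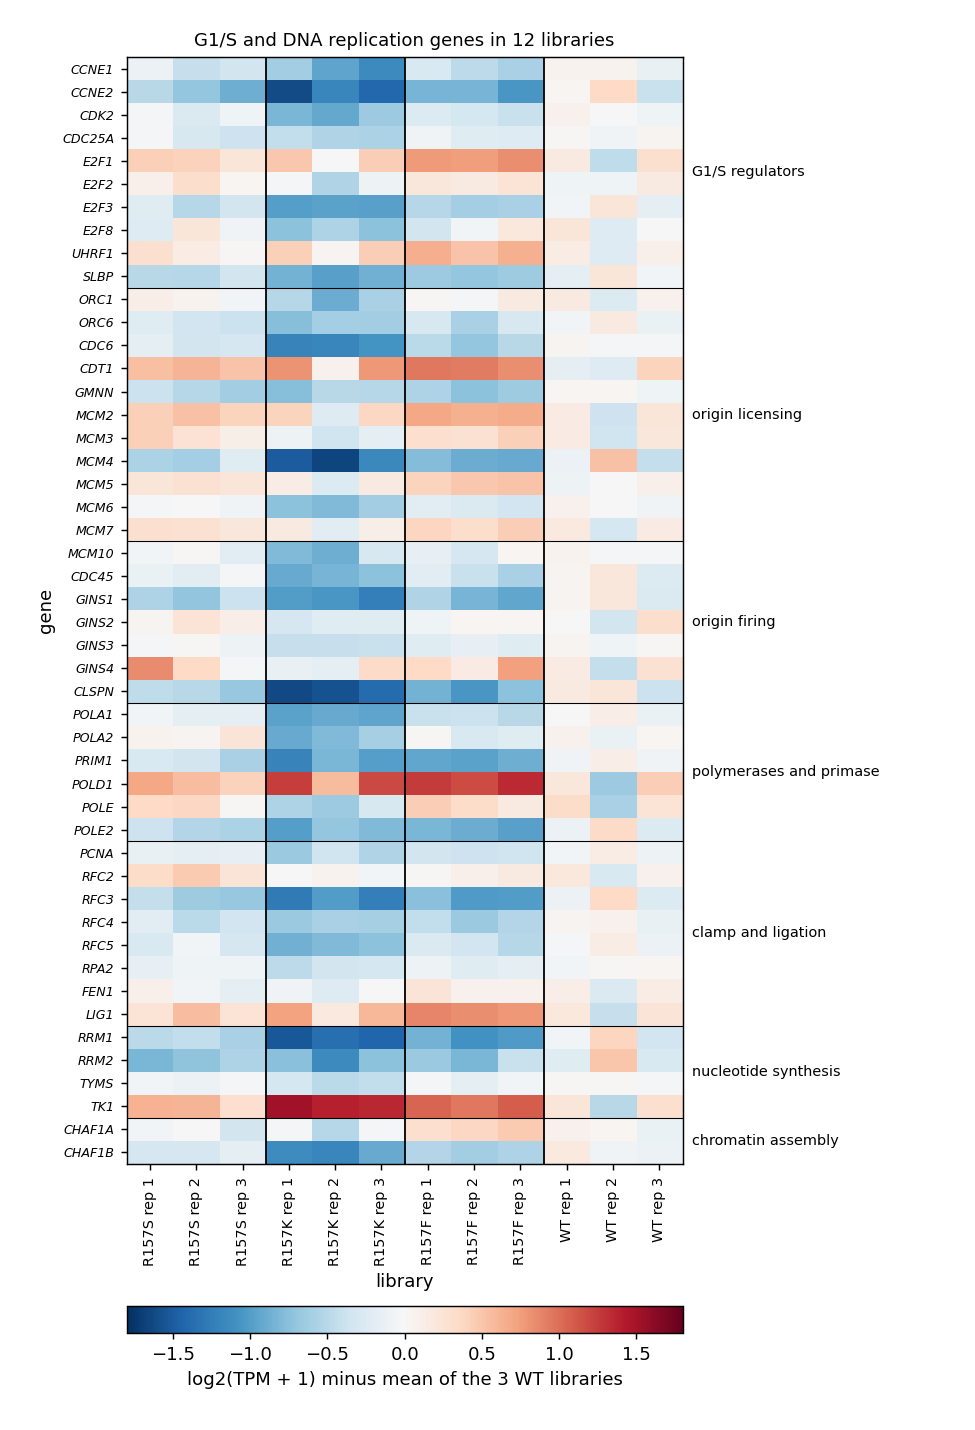
Each row is 1 of the 48 genes, grouped by role, and each column 1 library (R157S, R157K, R157F, then WT). Colour gives log2(TPM + 1) minus the gene's mean over the 3 WT libraries. The R157K columns hold most of the low values, and TK1 and POLD1 stand out as high there and in R157F.

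Many of the genes shared an order of the groups, as did many others. The mean was lowest with R157K for 36 of the 48 genes, lowest with R157F for 2, GMNN and POLE2, and lowest with WT for 10, against 57.7%, 7.92% and 29.6% of all genes tested. The highest mean was with R157S for 4 genes, R157K for TK1 alone, R157F for 14 and WT for 29, against 16.4%, 13.1%, 25.8% and 44.7% of all genes. For 25 genes the means ran R157K, R157F, R157S, WT from low to high, as for 34.3% of all genes. In 5 of them, SLBP, CDC6, CLSPN, RRM1 and CHAF1B, no library overlapped that of a neighbouring group, a pattern that 9.38% of all genes showed too. TK1 ran the other way round, again with no overlap, as did 1.45% of all genes. Counting libraries alone, R157K and WT did not overlap for 33 genes, 31 lower and 2 higher with R157K (backgrounds 47.6% and 15.9%, 63.5% in all). R157F and WT did not overlap for 36, 24 lower and 12 higher with R157F (backgrounds 37.7% and 28.6%, 66.3% in all). R157S and WT did not overlap for 24, 17 lower and 7 higher with R157S (backgrounds 23.9% and 19.7%, 43.6% in all). Within the labelled batches, the difference had the same sign in all 3 for 39 genes with R157K, 41 with R157F and 29 with R157S, against backgrounds of 79.1%, 75.2% and 58.4%.

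GC content of the transcript separated the genes that were lower from those that were higher. The 48 ran between 36.9% and 64.9% GC, with a median of 48.6%, close to the 48.7% of all genes. Across the 48 genes, Spearman's coefficient between GC content and the difference from WT reached 0.81 for R157S, 0.78 for R157K and 0.85 for R157F, given as a description over genes measured in the same libraries, and over all 14220 genes with a GC value it was 0.76, 0.72 and 0.81. Of the 16 genes with the lowest GC content, 16 were called lower with R157K, 15 with R157F and 10 with R157S, and none higher. Of the 16 with the highest, 2 were lower with R157K and 4 higher, 1 was lower with R157F and 10 higher, and none was called with R157S. The share called among all genes of like GC content is not given here. Once each library's trend with GC content and length over all genes was taken out, 20 genes were lower and 3 higher with R157K (backgrounds 22.5% and 19.9%), 12 lower and 5 higher with R157F (14.7% and 14%), and 2 lower and 0 higher with R157S (2.74% and 3.32%). Values with this trend removed are given below as trend-removed. With libraries scaled by median ratios in place of the TPM total, which takes out the shift of the median gene, 20 were lower and 11 higher with R157K (30.4% and 30.9%), 17 lower and 11 higher with R157F (28.7% and 29.3%), and 8 lower and 2 higher, CDT1 and TK1, with R157S (10.1% and 9.81%).

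**Figure D2:**
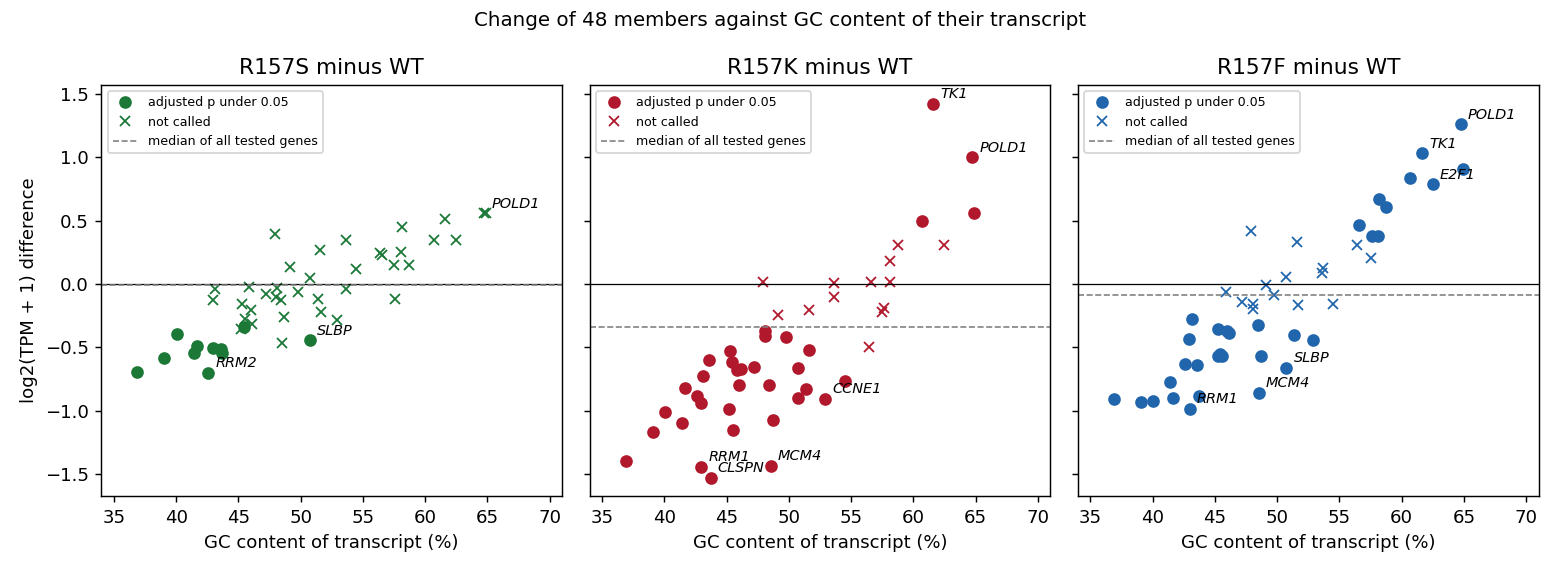
GC content of the transcript in percent is on the x axis and the log2(TPM + 1) difference from WT on the y axis, 1 panel per variant, with filled points for genes called at an adjusted p under 0.05 and a dashed line at the median of all genes. The 16 genes of lowest GC content lie below 0 in all panels, and with R157F the 10 genes called higher all lie to the right, up to POLD1 and TK1.

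Of the 10 G1/S regulators, 7 were lower with R157K, 5 were lower and 2 higher with R157F, and 2 were lower with R157S. Over all genes, 46.2% were lower and 17.3% higher with R157K, 33.8% and 24.4% with R157F, and 12.8% and 7.6% with R157S. The counts of each role below stand beside these same shares, and some lie near them. SLBP, which binds the stem-loop of histone mRNA and is needed to process and translate it in S phase, had the lowest p of the 4-plasmid test among them. SLBP was at 75.7, 75.03 and 85.4 TPM in the R157S libraries, 59.1, 54.03 and 58.4 in the R157K libraries, 68.1, 65.7 and 68.7 in the R157F libraries, and 95.4, 125 and 104 in the WT libraries. All 9 libraries of the variants lay below all WT libraries. SLBP differed from WT by -0.90 (SE 0.11, adjusted p = 1.49e-05) with R157K, by -0.66 (SE 0.11, adjusted p = 0.000458) with R157F and by -0.44 (SE 0.11, adjusted p = 0.022) with R157S. At 50.7% GC it kept these calls after the trend was removed, with differences of -0.71 (adjusted p = 0.000189), -0.67 (adjusted p = 0.000992) and -0.52 (adjusted p = 0.0156).

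E2F3, a transcription activator of S-phase genes, was lower with R157K and R157F as well. The level of E2F3 was 20.4, 16.5 and 18.9 TPM with R157S, 11.6, 11.7 and 11.6 TPM with R157K, 16.6, 15.4 and 15.7 TPM with R157F, and 23.2, 27.9 and 21.2 TPM with WT. The 3 R157K libraries were nearly equal, and every library of every variant was below the lowest WT library. E2F3 differed from WT by -0.98 (SE 0.12, adjusted p = 1.78e-05) with R157K and -0.56 (SE 0.12, adjusted p = 0.00186) with R157F, and the trend-removed differences were -0.22 (adjusted p = 0.0614) and -0.18 (adjusted p = 0.141). With R157S the difference was -0.35 (SE 0.12, adjusted p = 0.0529), which did not pass.

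Cyclin E and its kinase moved the same way. CDK2 was at 70.6, 59.97 and 68.7 TPM in the R157S libraries, 40.4, 37.5 and 45.6 in the R157K libraries, 60.9, 57.7 and 54.2 in the R157F libraries, and 76.1, 71.97 and 68.6 in the WT libraries. The R157K and R157F libraries lay below all WT libraries, and R157S libraries overlapped them. CDK2, the kinase that cyclin E activates, differed from WT by -0.80 (SE 0.10, adjusted p = 2.76e-05) with R157K, which held trend-removed (-0.39, adjusted p = 0.00181), and by -0.32 (SE 0.10, adjusted p = 0.0176) with R157F, which did not (-0.17, adjusted p = 0.128). CCNE2 measured 14.9, 12.9 and 11.2 TPM with R157S, 6.39, 8.98 and 7.44 with R157K, 11.7, 11.6 and 9.91 with R157F, and 22.01, 27.9 and 16.1 with WT. CCNE2, a cyclin E, had the lowest GC content of the 48, 36.9%, and every library of the variants was below every WT library. CCNE2 differed from WT by -1.40 (SE 0.18, adjusted p = 3.56e-05) with R157K, by -0.90 (SE 0.18, adjusted p = 0.00162) with R157F and by -0.69 (SE 0.18, adjusted p = 0.0288) with R157S, and trend-removed only R157K passed (-0.34, adjusted p = 0.0131).

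The other regulators were at low to moderate levels. CCNE1, the other cyclin E gene, averaged 6.29 ± 0.810 TPM with R157S, 3.79 ± 0.884 with R157K, 5.56 ± 0.744 with R157F and 7.88 ± 0.710 with WT (SD, n = 3). It was lower than with WT with R157K (-0.90, SE 0.16, adjusted p = 0.000294) and R157F (-0.44, SE 0.16, adjusted p = 0.0304), and both passed trend-removed (-0.84, adjusted p = 0.00131 and -0.58, adjusted p = 0.0179), the one with R157F not without WT replicate 2 (-0.49, adjusted p = 0.0693). E2F1, an activator like E2F3 but with 62.5% GC, averaged 11.03 ± 0.934 TPM with R157S, 10.8 ± 2.08 with R157K, 15.2 ± 0.512 with R157F and 8.65 ± 2.45 with WT (SD, n = 3). It was higher with R157F by 0.79 (SE 0.19, adjusted p = 0.00378), though not trend-removed (0.09, adjusted p = 0.454), and did not pass with R157K (0.30, SE 0.19, adjusted p = 0.173). UHRF1, which guides maintenance of DNA methylation behind the fork, was likewise higher with R157F (0.60, SE 0.14, adjusted p = 0.00269) and not trend-removed (0.13, adjusted p = 0.258). UHRF1 passed with R157K too with the replicate number as a block (0.31, adjusted p = 0.0304) or without R157K replicate 2 (0.44, adjusted p = 0.00998). The phosphatase gene CDC25A and the E2F repressor gene E2F8 were lower with R157K alone (-0.52, SE 0.11, adjusted p = 0.00142 and -0.67, SE 0.19, adjusted p = 0.00664) and did not pass trend-removed (-0.17, adjusted p = 0.2 and 0.01, adjusted p = 0.984), and E2F2 was called in none of the 3.

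Origin licensing genes were called in both directions with R157K and R157F. Of these 11 genes, 6 were lower and 1 higher with R157K, 5 were lower and 4 higher with R157F, and 1 was lower with R157S. CDC6, the ATPase that helps to load the MCM ring, had the lowest p of the 4-plasmid test of all 48 (adjusted p = 9.76e-06). CDC6 was at 51.02, 45.7 and 46.7 TPM in the R157S libraries, 24.5, 25.00 and 27.00 in the R157K libraries, 40.95, 35.2 and 40.5 in the R157F libraries, and 60.2, 56.3 and 57.3 in the WT libraries. The 4 groups did not overlap. CDC6 differed from WT by -1.15 (SE 0.09, adjusted p = 1.59e-06) with R157K and by -0.57 (SE 0.09, adjusted p = 0.000552) with R157F, and the trend-removed values were -0.41 (adjusted p = 0.00185) and -0.20 (adjusted p = 0.0823). Its difference with R157S, -0.27 (SE 0.09, adjusted p = 0.0559), did not pass although no library overlapped.

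Within the MCM2 to MCM7 ring, the core of the helicase, MCM4 and MCM6 were lower with R157K and R157F, while MCM2, MCM5 and MCM7 were higher with R157F and called in neither direction with R157K. The level of MCM4 was 88.7, 85.6 and 114 TPM with R157S, 46.2, 41.5 and 58.7 TPM with R157K, 76.4, 70.8 and 70.1 TPM with R157F, and 123, 190.4 and 98.1 TPM with WT. WT replicate 2 was the highest library, and all R157K and R157F libraries were below all WT libraries. MCM4 differed from WT by -1.43 (SE 0.21, adjusted p = 7.12e-05) with R157K and by -0.86 (SE 0.21, adjusted p = 0.0042) with R157F, held trend-removed (-0.88, adjusted p = 0.00284 and -0.68, adjusted p = 0.0196), and did not pass with R157S (-0.47, SE 0.21, adjusted p = 0.113). Without WT replicate 2 its R157S difference was -0.20. MCM6 measured 41.6, 42.6 and 40.9 TPM with R157S, 25.3, 24.2 and 27.4 with R157K, 36.9, 35.7 and 33.4 with R157F, and 45.1, 42.8 and 40.8 with WT. R157K libraries were lowest and R157F libraries next, while R157S libraries overlapped WT. MCM6 differed from WT by -0.72 (SE 0.09, adjusted p = 2.09e-05) with R157K and by -0.27 (SE 0.09, adjusted p = 0.0196) with R157F, but its sign turned once the trend was removed, to 0.12 (adjusted p = 0.232) and 0.24 (adjusted p = 0.034), the second not called without WT replicate 2 (0.16, adjusted p = 0.105).

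Other MCM subunits had transcripts richer in G and C. MCM2 (58.1% GC) averaged 48.2 ± 2.24 TPM with R157S, 40.6 ± 9.60 with R157K, 56.2 ± 1.16 with R157F and 35.6 ± 7.60 with WT (SD, n = 3). It was higher with R157F by 0.67 (SE 0.18, adjusted p = 0.00708), also trend-removed (0.23, adjusted p = 0.048), but without WT replicate 2 the trend-removed difference was 0.18 (adjusted p = 0.15). MCM5 and MCM7 were higher with R157F as well (0.46, SE 0.11, adjusted p = 0.00403 and 0.38, SE 0.13, adjusted p = 0.0284), though not trend-removed (0.13, adjusted p = 0.292 and -0.06, adjusted p = 0.511). By TPM with all libraries and no replicate block, MCM3 was called in none of the 3. It was higher with R157F with a block (0.34, adjusted p = 0.0456) or without WT replicate 3 (0.44, adjusted p = 0.026). With R157K, MCM3 was lower without WT replicate 2 (-0.38, adjusted p = 0.00947). With R157K, MCM2, MCM5 and MCM7 did not pass by TPM (0.18, 0.02 and 0.02), and were higher with median-ratio scaling (0.59, 0.42 and 0.43). MCM2 was also called higher with R157K without R157K replicate 2 (0.39, adjusted p = 0.0415).

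The MCM4 to MCM2 ratio was 1.87, 1.69 and 2.45 in R157S libraries, 0.99, 1.40 and 1.29 in R157K libraries, 1.33, 1.29 and 1.25 in R157F libraries, and 3.15, 7.08 and 2.40 in WT libraries. All R157K and R157F libraries lay below the lowest WT library, and R157S libraries overlapped WT. In all, 6 such ratios were formed after the values had been seen and compared by exact two-sided permutation tests, whose smallest possible p here is 0.1. Because the pairs were chosen from these same libraries, the p-values of all 6 ratios are descriptions and support no difference. For MCM4 to MCM2 the exact p was 0.1 with R157K, 0.1 with R157F and 0.2 with R157S, and over the 18 tests the lowest adjusted p was 0.12. MCM4 has 48.5% GC and MCM2 58.1%, and the part of GC content in this and the other ratios was not tested.

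The gene of geminin, an inhibitor of the licensing factor CDT1, was called lower with all 3 variants, and CDT1 was called higher with R157K and R157F. GMNN was at 52.8, 48.1 and 44.3 TPM in the R157S libraries, 40.4, 48.5 and 47.99 in the R157K libraries, 46.99, 41.1 and 44.2 in the R157F libraries, and 70.9, 71.1 and 65.8 in the WT libraries. Every library of the variants was below every WT library. GMNN, the geminin gene, differed from WT by -0.51 (SE 0.10, adjusted p = 0.0165) with R157S, by -0.60 (SE 0.10, adjusted p = 0.000293) with R157K and by -0.64 (SE 0.10, adjusted p = 0.000503) with R157F, and all 3 held trend-removed (-0.30, adjusted p = 0.043, -0.25, adjusted p = 0.0198 and -0.25, adjusted p = 0.029), the one with R157S only with all WT libraries (without WT replicate 2, adjusted p = 0.0504). CDT1, with 64.9% GC the richest of the 48, averaged 18.5 ± 0.701 TPM with R157S, 19.00 ± 5.26 with R157K, 23.9 ± 1.01 with R157F and 12.5 ± 3.45 with WT (SD, n = 3). It was higher with R157K (0.56, SE 0.20, adjusted p = 0.0274) and R157F (0.91, SE 0.20, adjusted p = 0.00243), though not trend-removed (0.05, adjusted p = 0.758 and 0.11, adjusted p = 0.478). R157K libraries of CDT1 overlapped WT, with 12.9 TPM in R157K replicate 2 and 16.5 in WT replicate 3. With R157S and all libraries the CDT1 difference, 0.56, did not pass. The GMNN to CDT1 ratio was 2.88, 2.50 and 2.47 in R157S libraries, 1.81, 3.75 and 2.20 in R157K libraries, 1.92, 1.68 and 1.95 in R157F libraries, and 6.59, 6.92 and 3.99 in WT libraries. No variant library reached the lowest WT ratio (exact p = 0.1 for each variant, adjusted 0.12). The origin recognition genes ORC1 and ORC6 were lower with R157K (-0.66, SE 0.14, adjusted p = 0.00109 and -0.67, SE 0.11, adjusted p = 0.000253), also trend-removed (-0.29, adjusted p = 0.0436 and -0.34, adjusted p = 0.00939), and with R157F ORC6 was lower (-0.39, SE 0.11, adjusted p = 0.0125), though not trend-removed (-0.13, adjusted p = 0.294), and ORC1 did not pass (0.05, SE 0.14, adjusted p = 0.766).

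**Figure D3:**
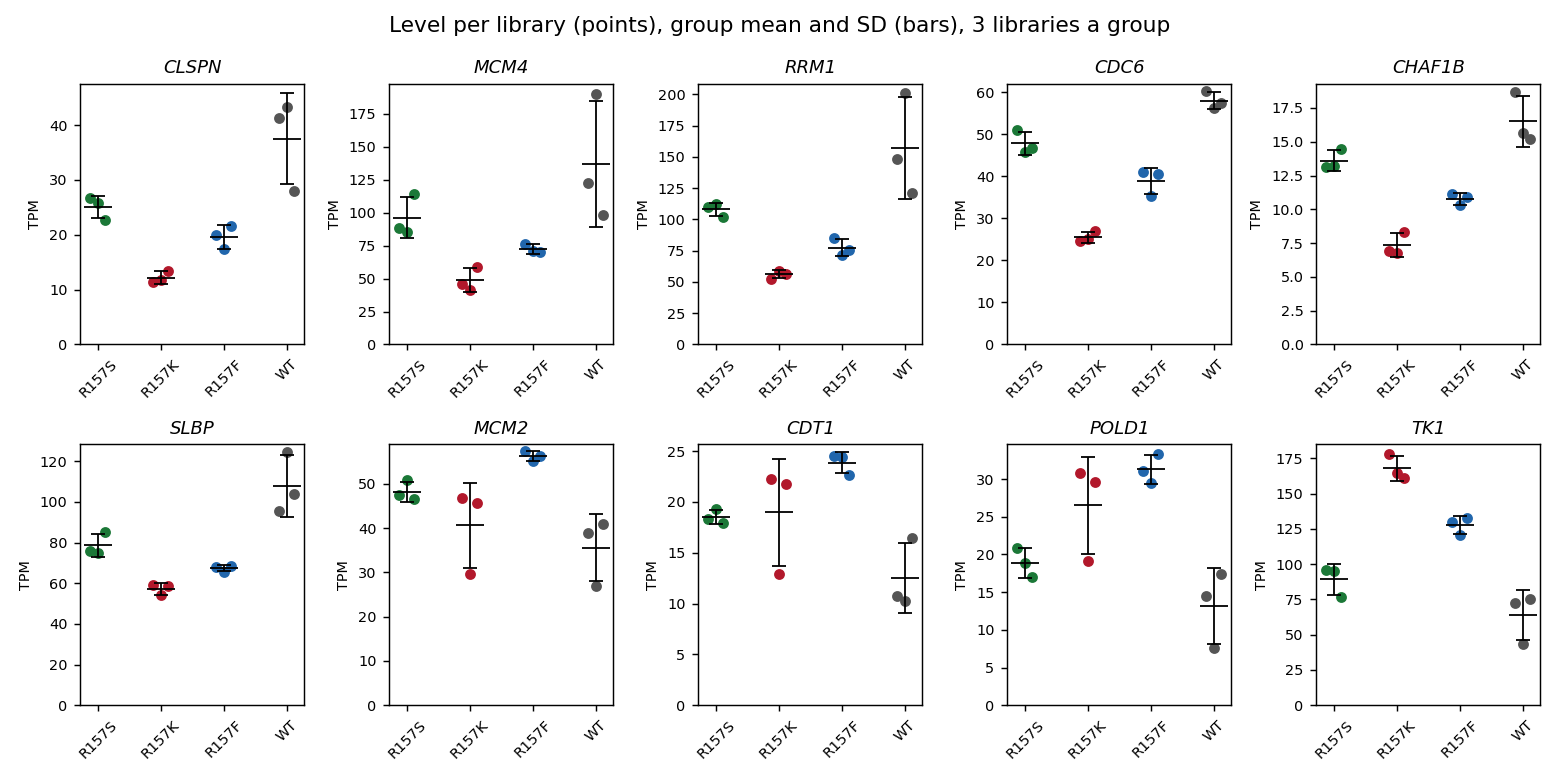
TPM in each library (points) with the group mean and SD (bars) is drawn for 10 members, on linear y axes that start at 0, with R157S, R157K, R157F and WT from left to right. RRM1, CLSPN and CDC6 have their lowest libraries with R157K, and TK1 has its highest there.

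Of the 7 genes of origin firing, 5 were lower with R157K, 3 with R157F and 2 with R157S, and none was higher. CLSPN encodes claspin, an adaptor at the fork that carries the checkpoint signal to CHK1, and had the largest negative difference of the 48 with R157K. CLSPN measured 26.7, 25.8 and 22.7 TPM with R157S, 11.3, 11.8 and 13.5 with R157K, 20.04, 17.3 and 21.6 with R157F, and 41.4, 43.3 and 28.1 with WT. The 4 groups did not overlap. CLSPN differed from WT by -1.53 (SE 0.16, adjusted p = 5.86e-06) with R157K, by -0.88 (SE 0.16, adjusted p = 0.000753) with R157F and by -0.54 (SE 0.16, adjusted p = 0.0346) with R157S. The trend-removed values were -0.70 (adjusted p = 0.000574), -0.40 (adjusted p = 0.024) and -0.31 (adjusted p = 0.128), and without WT replicate 2 the trend-removed R157F call was lost (-0.36, adjusted p = 0.0757).

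GINS and CDC45 complete the helicase. GINS1 was at 20.3, 18.1 and 22.9 TPM in the R157S libraries, 14.4, 14.1 and 12.3 in the R157K libraries, 20.4, 16.5 and 15.3 in the R157F libraries, and 31.2, 34.9 and 25.1 in the WT libraries. All variant libraries were below all WT libraries. GINS1 differed from WT by -1.10 (SE 0.15, adjusted p = 3.91e-05) with R157K, by -0.77 (SE 0.15, adjusted p = 0.00109) with R157F and by -0.54 (SE 0.15, adjusted p = 0.0298) with R157S, and no difference passed trend-removed (-0.20, -0.16 and -0.21). The level of CDC45 was 32.6, 31.1 and 35.00 TPM with R157S, 18.5, 19.6 and 21.1 TPM with R157K, 30.7, 26.7 and 23.4 TPM with R157F, and 36.95, 41.2 and 29.9 TPM with WT. R157K libraries were below all WT libraries, while R157S and R157F each overlapped WT. CDC45 differed from WT by -0.83 (SE 0.13, adjusted p = 0.00015) with R157K and by -0.40 (SE 0.13, adjusted p = 0.0209) with R157F, and both passed trend-removed (-0.65, adjusted p = 0.00225 and -0.44, adjusted p = 0.0284), the one with R157F not without WT replicate 2 (-0.30, adjusted p = 0.105). GINS3 measured 15.7, 16.1 and 14.9 TPM with R157S, 11.7, 11.7 and 11.8 with R157K, 13.5, 14.2 and 13.6 with R157F, and 16.6, 14.9 and 16.2 with WT. The R157K libraries were all but equal and below all WT libraries. GINS3 differed from WT by -0.41 (SE 0.09, adjusted p = 0.00187) with R157K, a change of -0.07 once the median of all genes is subtracted and of 0.01 (adjusted p = 0.901) trend-removed. MCM10, a firing factor, was lower with R157K (-0.65, SE 0.15, adjusted p = 0.00237) and not trend-removed (-0.07, adjusted p = 0.699). With all libraries GINS2 and GINS4 were called in none of the 3, and GINS2 was lower with R157K without WT replicate 2 (-0.41, adjusted p = 0.0126).

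Among the 6 polymerase and primase genes, 4 were lower and 1 higher with R157K, 3 were lower and 1 higher with R157F, and 2 were lower with R157S. POLA1 is the catalytic subunit of polymerase alpha and POLA2 its accessory subunit. POLA1 was at 18.7, 17.3 and 17.3 TPM in the R157S libraries, 9.51, 9.84 and 9.59 in the R157K libraries, 14.4, 14.6 and 13.4 in the R157F libraries, and 19.3, 21.3 and 17.8 in the WT libraries. R157K libraries were lowest, R157F libraries next, and R157S libraries overlapped WT. POLA1 differed from WT by -0.94 (SE 0.10, adjusted p = 7.23e-06) with R157K and by -0.43 (SE 0.10, adjusted p = 0.0032) with R157F, and neither passed trend-removed (-0.04, adjusted p = 0.694 and 0.09, adjusted p = 0.342). POLA2 measured 33.1, 32.6 and 37.1 TPM with R157S, 16.4, 17.8 and 20.5 with R157K, 31.9, 25.9 and 27.1 with R157F, and 33.4, 29.1 and 32.3 with WT. R157K libraries stood apart below the other groups, which overlapped. POLA2 differed from WT by -0.77 (SE 0.12, adjusted p = 0.000102) with R157K and held trend-removed (-0.60, adjusted p = 0.000987). With R157F it did not pass by TPM (-0.16, SE 0.12, adjusted p = 0.265) but was lower trend-removed (-0.36, adjusted p = 0.03), a call that was lost without WT replicate 2 (-0.34, adjusted p = 0.081). POLA2, with 54.5% GC, and CCNE1, with 52.9%, were the 2 members called lower with R157K among the 16 of highest GC content.

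PRIM1, the catalytic subunit of primase, was the only member called between R157S and R157F, by 0.53 (SE 0.12, adjusted p = 0.0335), against 4.31% of all genes called higher and 1.11% lower. The call was lost trend-removed (0.30, adjusted p = 0.0664), with median-ratio scaling (0.46, adjusted p = 0.0754) and without any 1 of 8 libraries, namely WT replicate 1, R157K replicate 3 and each of the R157S and R157F libraries (0.47 to 0.62). The level of PRIM1 was 18.5, 17.7 and 14.7 TPM with R157S, 9.25, 12.3 and 10.8 TPM with R157K, 11.3, 11.1 and 11.8 TPM with R157F, and 21.6, 24.6 and 21.6 TPM with WT. R157K and R157F libraries overlapped each other and lay below R157S libraries, which lay below WT. PRIM1 differed from WT by -1.01 (SE 0.12, adjusted p = 2.17e-05) with R157K, by -0.92 (SE 0.12, adjusted p = 0.000242) with R157F and by -0.39 (SE 0.12, adjusted p = 0.044) with R157S, and trend-removed the first 2 of these passed (-0.45, adjusted p = 0.000965 and -0.33, adjusted p = 0.0118). With the replicate number as a block the R157S difference no longer passed (adjusted p = 0.0514).

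POLD1, the catalytic subunit of polymerase delta, was higher with R157K and R157F, while POLE2, an accessory subunit of polymerase epsilon, was lower with all 3 variants. POLD1 was at 20.9, 18.9 and 16.9 TPM in the R157S libraries, 30.8, 19.1 and 29.6 in the R157K libraries, 31.1, 29.4 and 33.3 in the R157F libraries, and 14.5, 7.57 and 17.4 in the WT libraries. R157K and R157F libraries lay above all WT libraries, of which replicate 2 was far the lowest. POLD1 differed from WT by 1.00 (SE 0.25, adjusted p = 0.00338) with R157K and by 1.26 (SE 0.25, adjusted p = 0.00124) with R157F, held trend-removed (0.51, adjusted p = 0.0049 and 0.48, adjusted p = 0.0127), and did not pass with R157S (0.56, SE 0.25, adjusted p = 0.11). Without WT replicate 2 its R157K and R157F differences were 0.67 and 0.93, both still called. POLE2 measured 12.8, 11.4 and 11.04 TPM with R157S, 7.99, 10.1 and 9.30 with R157K, 9.10, 8.62 and 8.04 with R157F, and 15.6, 21.6 and 14.1 with WT. All variant libraries were below all WT libraries, and R157K and R157F overlapped. POLE2 differed from WT by -0.82 (SE 0.15, adjusted p = 0.000405) with R157K, by -0.90 (SE 0.15, adjusted p = 0.000572) with R157F and by -0.49 (SE 0.15, adjusted p = 0.0411) with R157S, and trend-removed R157F passed (-0.36, adjusted p = 0.0103) and R157K and R157S did not (-0.20, adjusted p = 0.0821 and -0.18, adjusted p = 0.223). POLE, the catalytic subunit of epsilon, was called in none of the 3 comparisons (log2 differences of 0.25 for R157S, -0.50 for R157K and 0.31 for R157F). With R157K it was lower without WT replicate 2 (-0.79, adjusted p = 0.000487) or R157K replicate 3 (-0.60, adjusted p = 0.0493). The ratio of PRIM1 to POLD1 had an exact p of 0.1 for each variant (adjusted 0.12), and that of POLE2 to POLE had 0.1 with R157S, 0.1 with R157F and 0.6 with R157K.

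The clamp PCNA, its loader and the ligation enzymes made up 8 genes. Of these, 5 were lower and 1 higher with R157K, 4 lower and 1 higher with R157F, and 2 lower with R157S. PCNA was at 213, 208 and 212 TPM in the R157S libraries, 148, 183 and 161 in the R157K libraries, 186, 182 and 184 in the R157F libraries, and 228, 259 and 221 in the WT libraries. Every variant library was below every WT library, by small margins with R157S. PCNA, the sliding clamp of the polymerases, differed from WT by -0.53 (SE 0.09, adjusted p = 0.000326) with R157K and by -0.35 (SE 0.09, adjusted p = 0.00681) with R157F, and trend-removed only R157K passed (-0.24, adjusted p = 0.00326). With the median of all genes subtracted its R157K change was -0.19. The level of RFC3 was 28.6, 24.4 and 23.8 TPM with R157S, 15.5, 18.8 and 15.9 TPM with R157K, 22.6, 18.5 and 18.8 TPM with R157F, and 35.8, 50.05 and 32.3 TPM with WT. All variant libraries were below all WT libraries. RFC3, a clamp loader subunit with 39.1% GC, differed from WT by -1.17 (SE 0.16, adjusted p = 3.91e-05) with R157K, by -0.93 (SE 0.16, adjusted p = 0.000602) with R157F and by -0.58 (SE 0.16, adjusted p = 0.0295) with R157S. Trend-removed, R157K passed (-0.27, adjusted p = 0.017), with WT replicate 2 included only (without it, adjusted p = 0.058).

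The subunits RFC4 and RFC5 had smaller differences. RFC4 measured 46.4, 37.7 and 41.6 TPM with R157S, 33.1, 35.1 and 34.7 with R157K, 38.6, 32.9 and 36.4 with R157F, and 54.99, 56.1 and 48.2 with WT. All variant libraries were below all WT libraries. RFC4 differed from WT by -0.61 (SE 0.11, adjusted p = 0.000266) with R157K, by -0.55 (SE 0.11, adjusted p = 0.00113) with R157F and by -0.34 (SE 0.11, adjusted p = 0.043) with R157S, the last lost with a replicate block (adjusted p = 0.0529). Trend-removed, R157K and R157F passed (-0.31, adjusted p = 0.0118 and -0.26, adjusted p = 0.0354) and R157S did not (-0.20), and without WT replicate 2 the trend-removed R157F call was lost (-0.26, adjusted p = 0.0797). RFC5 was at 18.7, 21.9 and 18.2 TPM in the R157S libraries, 12.1, 12.7 and 13.1 in the R157K libraries, 18.7, 17.7 and 15.6 in the R157F libraries, and 22.1, 25.1 and 21.04 in the WT libraries. R157K and R157F libraries were below all WT libraries. RFC5 differed from WT by -0.80 (SE 0.11, adjusted p = 6.09e-05) with R157K and by -0.37 (SE 0.11, adjusted p = 0.0139) with R157F, and trend-removed R157K alone passed (-0.45, adjusted p = 0.00163). LIG1, the ligase that joins Okazaki fragments (60.7% GC), averaged 22.8 ± 3.12 TPM with R157S, 25.6 ± 5.08 with R157K, 32.2 ± 1.13 with R157F and 17.97 ± 4.35 with WT (SD, n = 3). It was higher with R157K (0.50, SE 0.18, adjusted p = 0.0308) and R157F (0.84, SE 0.18, adjusted p = 0.00236), also trend-removed (0.24, adjusted p = 0.041 and 0.25, adjusted p = 0.0444), but without WT replicate 2 neither trend-removed difference passed (0.19, adjusted p = 0.121 and 0.21, adjusted p = 0.135). RPA2, of the single-strand binding complex, was lower with R157K (-0.37, SE 0.08, adjusted p = 0.00178), but not trend-removed (-0.11, adjusted p = 0.16), and with a sign that turned under median-ratio scaling (0.04). RFC2 and the flap endonuclease gene FEN1 were called in none of the 3 by TPM.

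Of the 4 genes of nucleotide synthesis, 3 were lower and 1 higher with R157K, 2 lower and 1 higher with R157F, and 2 lower with R157S. RRM1 and RRM2 are the subunits of ribonucleotide reductase, which makes deoxynucleotides, TYMS makes thymidylate, and TK1 salvages thymidine. RRM1 was at 109.5, 112 and 102 TPM in the R157S libraries, 52.5, 58.98 and 56.5 in the R157K libraries, 84.9, 71.8 and 75.3 in the R157F libraries, and 148, 201 and 121 in the WT libraries. The 4 groups did not overlap, and R157K was lowest. RRM1 differed from WT by -1.44 (SE 0.15, adjusted p = 6.62e-06) with R157K, by -0.98 (SE 0.15, adjusted p = 0.00038) with R157F and by -0.50 (SE 0.15, adjusted p = 0.0381) with R157S. Trend-removed the R157K and R157F differences passed (-0.63, adjusted p = 0.000305 and -0.47, adjusted p = 0.00446) and the R157S one did not (-0.24, adjusted p = 0.155). The level of TK1 was 96.03, 95.00 and 76.8 TPM with R157S, 178, 164 and 161 TPM with R157K, 129.7, 120.4 and 133 TPM with R157F, and 72.3, 43.3 and 75.6 TPM with WT. Here too the 4 groups did not overlap, and R157K was highest. TK1 differed from WT by 1.42 (SE 0.17, adjusted p = 2.05e-05) with R157K and by 1.03 (SE 0.17, adjusted p = 0.000606) with R157F, and with R157S by 0.51 (SE 0.17, adjusted p = 0.0546), which did not pass. The R157K and R157F differences held trend-removed (0.78, adjusted p = 0.000108 and 0.33, adjusted p = 0.0322), and without WT replicate 2 the trend-removed R157F call was lost (0.25, adjusted p = 0.113). TK1 has 61.6% GC and RRM1 43.0%.

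The RRM1 to TK1 ratio was 1.14, 1.18 and 1.33 in R157S libraries, 0.295, 0.359 and 0.351 in R157K libraries, 0.654, 0.597 and 0.568 in R157F libraries, and 2.05, 4.64 and 1.60 in WT libraries. No 2 groups overlapped (exact p = 0.1 for each variant against WT, adjusted 0.12). RRM2 measured 168, 182 and 204 TPM with R157S, 178, 134 and 179 with R157K, 188, 169.9 and 226 with R157F, and 259, 423 and 247 with WT. All variant libraries were below all WT libraries, and WT replicate 2 stood far above the other 2. RRM2 differed from WT by -0.70 (SE 0.19, adjusted p = 0.0315) with R157S, the largest negative difference there, by -0.88 (SE 0.19, adjusted p = 0.00153) with R157K and by -0.63 (SE 0.19, adjusted p = 0.0144) with R157F. None of these passed trend-removed (-0.42, -0.03 and -0.09), and without WT replicate 2 the R157S difference was -0.45 and the R157F difference -0.38. The RRM1 to RRM2 ratio was 0.65, 0.618 and 0.50 in R157S libraries, 0.295, 0.439 and 0.316 in R157K libraries, 0.451, 0.423 and 0.333 in R157F libraries, and 0.573, 0.475 and 0.49 in WT libraries. It was lower in every R157K and R157F library than in any WT library (exact p = 0.1 each, adjusted 0.12). RRM1 has 43.0% GC and RRM2 42.6%, and the part of GC content and length in the ratio was not tested. TYMS was at 166, 159 and 169 TPM in the R157S libraries, 137, 122 and 126 in the R157K libraries, 169, 152 and 166 in the R157F libraries, and 174, 174 and 167 in the WT libraries. R157K libraries were below all others. TYMS differed from WT by -0.42 (SE 0.08, adjusted p = 0.000643) with R157K, by -0.08 with the median of all genes subtracted and by -0.29 (adjusted p = 0.00452) trend-removed.

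CHAF1A and CHAF1B are subunits of chromatin assembly factor 1, which deposits new histones behind the fork, and they parted with R157F. The level of CHAF1B was 13.2, 13.2 and 14.5 TPM with R157S, 6.93, 6.75 and 8.35 TPM with R157K, 11.1, 10.3 and 10.9 TPM with R157F, and 18.7, 15.7 and 15.2 TPM with WT. The 4 groups did not overlap. CHAF1B differed from WT by -1.07 (SE 0.12, adjusted p = 9.06e-06) with R157K and by -0.57 (SE 0.12, adjusted p = 0.00169) with R157F, held trend-removed (-0.51, adjusted p = 0.000725 and -0.40, adjusted p = 0.00668), and did not pass with R157S (-0.26, SE 0.12, adjusted p = 0.118). CHAF1A measured 32.8, 34.1 and 26.8 TPM with R157S, 33.1, 23.4 and 33.3 with R157K, 41.7, 43.8 and 47.2 with R157F, and 35.7, 34.8 and 31.1 with WT. R157F libraries lay above all other libraries, and R157K and R157S overlapped WT. CHAF1A differed from WT by 0.38 (SE 0.14, adjusted p = 0.0374) with R157F, not trend-removed (-0.03, adjusted p = 0.903), nor with the replicate number as a block (adjusted p = 0.0518).

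Between variants, most calls among the 48 genes were in the comparisons with R157K, as over all genes. The median difference of the 48 was 0.38 for R157S against R157K, with 0.33 over all genes. It was -0.41 for R157K against R157F (-0.27 over all genes) and 0.13 for R157S against R157F (0.07). R157S against R157K had 32 genes higher and 1, TK1, lower (backgrounds 42.2% and 7.9%). R157K against R157F had 21 lower and 0 higher by limma (backgrounds 26.4% and 3.3%), and 33 lower and 1 higher at an unadjusted p under 0.05. R157S against R157F had PRIM1 higher and 0 lower (backgrounds 4.31% and 1.11%), and at an unadjusted p under 0.05 there were 9 higher and 6 lower. The unadjusted counts in this paragraph have no share over all genes beside them. Without WT replicate 2, R157S against R157F had 13 calls in place of 1, 7 higher and 6 lower (backgrounds 14.8% and 7.61%). It had 2 higher and 1 lower without WT replicate 3 (7.47% and 2.68%), and 1 higher and 2 lower without R157K replicate 2 (5.18% and 1.74%). R157K against R157F had 30 lower and 1 higher, TK1, without WT replicate 2 (backgrounds 36.2% and 4.89%), against 12 lower without R157F replicate 1 (14.3%), and 10 of its 21 calls stayed whichever library was left out. Of the 32 genes higher with R157S than with R157K, 24 stayed. The shares of all genes' calls that stayed are not given here. CDC6 had the lowest adjusted p of both comparisons with R157K, with R157S above R157K by 0.88 (SE 0.09, adjusted p = 2.55e-05) and R157K below R157F by a log2 difference of -0.59 (SE 0.09, adjusted p = 0.00139). POLA2 was higher with R157S than with R157K by 0.88 (SE 0.12, adjusted p = 9.45e-05), and its R157K to R157F difference was -0.61 (SE 0.12, adjusted p = 0.00327). TK1 was lower with R157S than with R157K by a log2 difference of -0.91 (SE 0.17, adjusted p = 0.00108), and did not pass for R157K against R157F (0.39, adjusted p = 0.107), where it was called without WT replicate 2 (adjusted p = 0.00631). Taking out the trend left R157S against R157K with 11 higher and 4 lower (backgrounds 15.2% and 13.4%), among them CDC6 (0.28) and POLA2 (0.53) higher, and R157K against R157F with 4 lower and 1 higher, TK1 (backgrounds 5.69% and 5.9%). Median-ratio scaling left R157S against R157K with 10 higher and 5 lower (15.3% and 17.5%), and R157K against R157F with TK1 higher and 0 lower (6.04% and 3.08%). R157S against R157F had 0 calls by limma with the trend removed (2.12% of genes higher and 1.38% lower), with 4 higher and 5 lower at an unadjusted p under 0.05, and with median-ratio scaling it had UHRF1 (-0.53) and CHAF1A (-0.57) lower and 0 higher (1.08% and 1.22%).

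**Figure D4:**
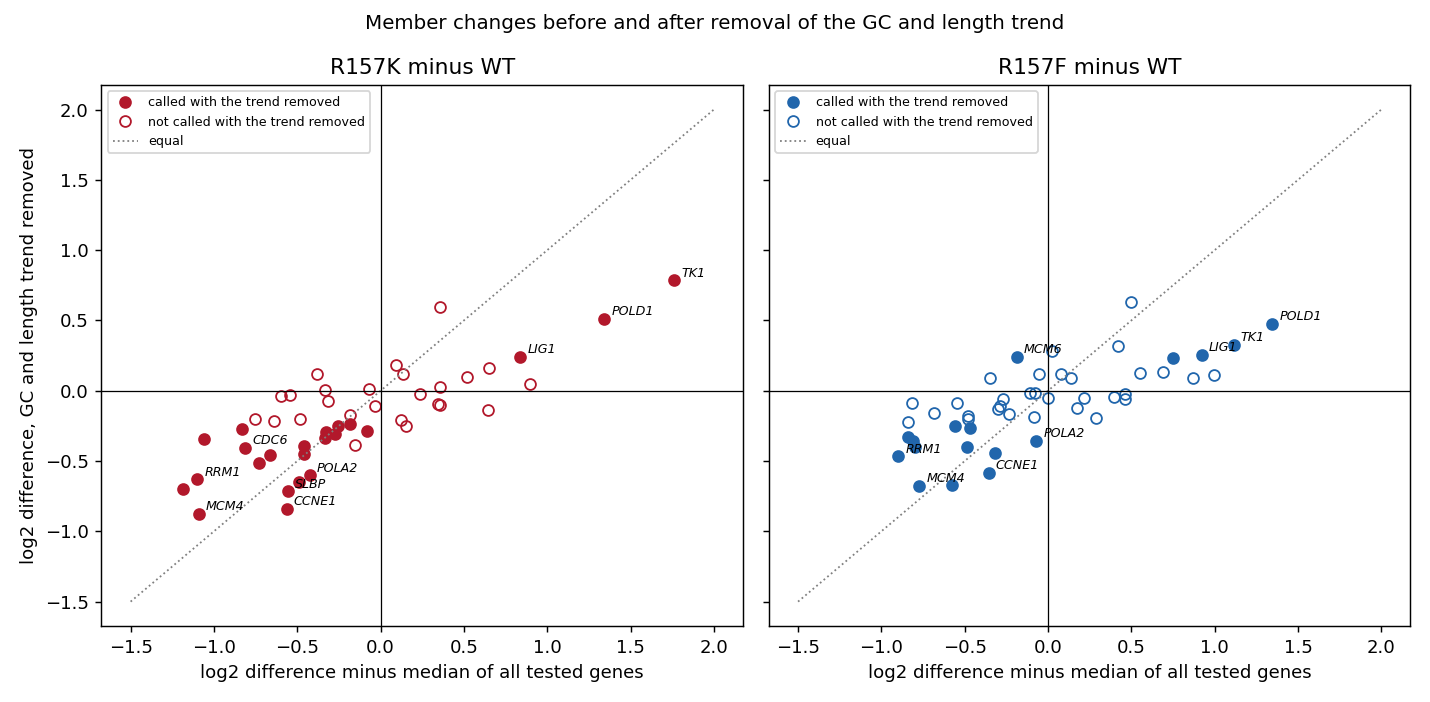
Each point is 1 of the 48 genes, with the log2 difference from WT minus the median of all genes on the x axis and the same difference with the GC and length trend removed on the y axis, for R157K and R157F. Filled points are called with the trend removed. TK1 and POLD1 stay highest of the called genes, MCM4, RRM1, SLBP and CCNE1 stay low, and MCM6 crosses 0.

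A further 60 genes of the same machinery, chosen by name to cover the pocket proteins, the other origin and fork factors and further nucleotide enzymes, were all tested too. They were poorer in G and C, with a median of 42.6% against 48.6% for the 48. With R157K, 48 of the 60 were lower and 8 higher (backgrounds 46.2% and 17.3%), with R157F 43 were lower and 10 higher (33.8% and 24.4%), and with R157S 24 were lower and 3 higher (12.8% and 7.6%). Their median differences from WT were -1.09, -0.63 and -0.38. Trend-removed, 23 were lower and 5 higher with R157K (22.5% and 19.9%), 15 lower and 5 higher with R157F (14.7% and 14%), and 2 lower and 1 higher with R157S (2.74% and 3.32%). MCMBP, which binds MCM subunits, had the lowest adjusted p in 2 of the 3 comparisons, and its 3 libraries held 27.5, 29.97 and 30.8 TPM with R157K, 42.1, 38.5 and 40.8 TPM with R157F and 71.7, 78.3 and 62.4 TPM with WT. MCMBP differed from WT by -1.23 (SE 0.10, adjusted p = 1.6e-06) with R157K and -0.79 (SE 0.10, adjusted p = 0.000206) with R157F, and by -0.33 and -0.22 trend-removed, both called. SKP2, the F-box protein that marks a CDK inhibitor for destruction, differed by -1.43 (SE 0.13, adjusted p = 2.92e-06) with R157K and -0.93 (SE 0.13, adjusted p = 0.000278) with R157F, and by -0.50 and -0.31 trend-removed, both called. LIN54, a DNA-binding subunit of the DREAM complex, which represses E2F targets in resting cells, differed by -1.52 (SE 0.13, adjusted p = 2.16e-06) with R157K and -0.87 (SE 0.13, adjusted p = 0.000365) with R157F, and by -0.44 (called) and -0.15 (not called) trend-removed. E2F7, a repressor of E2F targets, differed by -1.48 (SE 0.13, adjusted p = 2.5e-06) with R157K and -0.80 (SE 0.13, adjusted p = 0.000542) with R157F, and by -0.58 (called) and -0.29 (not called) trend-removed. RB1, the retinoblastoma gene itself, differed by -1.64 (SE 0.16, adjusted p = 3.59e-06) with R157K and -1.04 (SE 0.16, adjusted p = 0.000348) with R157F, and by -0.53 and -0.24 trend-removed, both called. Of the genes called higher, POLD4, an accessory subunit of polymerase delta named here after its values were seen, averaged 32.5 ± 0.943 TPM with R157S, 66.3 ± 5.38 with R157K, 43.5 ± 1.57 with R157F and 19.0 ± 6.68 with WT (SD, n = 3). Against WT it was called higher for R157S by 0.80 (SE 0.19, adjusted p = 0.0221), for R157K by 1.81 (SE 0.19, adjusted p = 7.17e-06) and for R157F by 1.21 (SE 0.19, adjusted p = 0.00043), also trend-removed (0.40, 0.97 and 0.49). With R157S the lowest adjusted p-values were those of WDHD1 (-0.82, SE 0.16, adjusted p = 0.0165), FBXO5 (-0.55, SE 0.12, adjusted p = 0.0203), DNA2 (-0.73, SE 0.17, adjusted p = 0.0206) and RRM2B (-0.76, SE 0.17, adjusted p = 0.021), which act at the fork, restrain the anaphase-promoting complex, trim flaps and supply deoxynucleotides, in that order. None of these 4 passed trend-removed with R157S.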

How the data were processed

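RNA of 12 HEPM libraries was analysed, 3 for each of 4 MSX1 plasmids, grouped by the labels. The authors deposited 1 table of TPM per gene and library, and RSEM is named without a version in the submitters' processing notes. Libraries were made from poly(A) RNA with a stranded kit, per the labels' protocols. For the aligner, genome build, annotation and the strand setting of the counting, the sources used here give nothing, so genes that share reads with pseudogenes or overlapping genes are uncertain. No 2 libraries held identical values.

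Each comparison used limma 3.58.1 in R 4.3.3 on log2(TPM + 1), which understates changes of low genes, with 1 coefficient per plasmid, a variance trend with mean level, and Benjamini-Hochberg adjustment over 14718 genes (at least 1 TPM in at least 3 libraries). The code was tested on simulated data. The 48 members, the 60 further genes and the naming rule (within each role, the up to 4 members with the lowest p of the 4-plasmid test, and the largest change in each direction relative to the median of all genes) were chosen with earlier results of these data known, and ratios after the values were seen. As alternatives, GC content and length (GENCODE 29, 14220 genes) were regressed out of each library by natural splines with 5 degrees of freedom, libraries were rescaled, filtered otherwise or left out. Removing that trend without WT replicate 2 was added after seeing the data.

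The labels give the replicate number as a batch, so the numbers pair the libraries across groups. Deviations of same-numbered libraries from their group means correlated between -0.13 and 0.39 over 18 pairs of libraries, 2 of them over 0.1. The p-values reflect the spread among these libraries alone, which may be technical.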

Additional observations from a re-analysis of the deposited data

How the results depend on the processing

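A pseudocount of 0.1 kept every count of called members within 1.5 times, and removing the GC and length trend, which tests fewer genes, moved most of them. Counts over all genes, given beside them, are of 14718 tested, 30594 with no filter and 14220 with the trend removed. Members called lower with R157S against WT numbered 2 with no filter or the trend removed, 1 with the trend and a block removed, 0 with only those groups fitted (14 at an unadjusted limma p under 0.05) and 1 with the trend removed without WT replicate 2, in place of 11, and spanned 0 to 14 without 1 library. Over all genes, the 1883 lower calls became 408 with no filter, 390 with the trend removed and 291 with the block as well. They became 4 with only those groups fitted and 189 with the trend removed without WT replicate 2, and spanned 19 to 3164 without 1 library. Members called higher there were 2 with median-ratio scaling in place of 0, and 0 to 5 without 1 library. Over all genes, 1444 were called higher with median-ratio scaling in place of 1119, and 20 to 2597 without 1 library. With R157K, 4 higher calls became 2 with no filter, only those groups fitted, or the trend removed with the block or without WT replicate 2, 11 with median-ratio scaling, and 2 to 6 without 1 library, and the 31 lower calls became 20 with median-ratio scaling and in each fit with the trend removed. With R157F, 10 higher calls became 5, 4 with the block and 2 without WT replicate 2 once the trend was removed, and 23 lower calls became 12, 11 and 8. Over all genes, 3596 higher calls became 1995, 1924 and 1427 in these fits, and 4975 lower calls became 2096, 1967 and 1462. R157S against R157K had 33 calls, 15 with median-ratio scaling or the trend removed, 14 with the block as well and 20 without WT replicate 2. R157S against R157F had 1 call, 0 with no filter and with the trend removed with or without the block, 2 with median-ratio scaling, 4 with the trend removed without WT replicate 2, 22 with only those groups fitted, and 0 to 13 without 1 library. Over all genes, 635 higher and 163 lower became 300 and 44 with no filter and 180 and 159 with median-ratio scaling. With the trend removed they became 302 and 196, 207 and 122 with the block, and 598 and 529 without WT replicate 2. They became 2785 and 1830 with only those groups fitted, 26 and 7 without R157F replicate 3, and 2180 and 1120 without WT replicate 2. R157K against R157F had 21 calls, 1 with median-ratio scaling, 5 with the trend removed, 4 with the block as well, 5 without WT replicate 2, and 12 to 31 without 1 library. Over all genes, 486 higher and 3884 lower became 889 and 453 with median-ratio scaling. With the trend removed they became 839 and 809, 732 and 718 with the block, and 1092 and 1155 without WT replicate 2. The F test over 4 plasmids called 42 (70.8% of all genes), and 23 in each fit with the trend removed. With the trend alone removed, 41.8% of all genes passed it.

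The replicate block by itself gave 2 calls for R157S against R157F in place of 1. Over all genes it gave 485 higher and 141 lower there, in place of 635 and 163. Against WT it ended the calls of PRIM1 and RFC4 with R157S and of CHAF1A with R157F, added UHRF1 and MSX1 (0.58) with R157K and MCM3 with R157F, and changed no other call of the 48 genes and MSX1. Between variants it ended GINS2, RFC2 and RFC4 for R157S against R157K, and added UHRF1 and MSX1 (-0.98) for R157S against R157F and CCNE2, MCM2, MCM7 and MSX1 (-0.82) for R157K against R157F.

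The members' median change minus that of all genes was -0.29 with R157K, -0.25 with a pseudocount of 0.1, -0.59 with no filter, -0.24 with median-ratio scaling, -0.19 with the trend removed, -0.15 with that and without WT replicate 2, and -0.31 to -0.24 without 1 library. With R157F it was -0.10, -0.18 with no filter, and -0.14 to -0.0768 without 1 library. Between variants it was 0.05 for R157S against R157K (0.33 with no filter, 0.0463 to 0.10 without 1 library), 0.06 for R157S against R157F (0.13 with no filter, 0.00023 with the trend removed, 0.01997 to 0.071 without 1 library) and -0.14 for R157K against R157F (-0.35 with no filter, -0.11 with the trend removed, -0.15 to -0.0904 without 1 library). MSX1 with R157K passed with median-ratio scaling (0.99) and spanned 0.31 to 0.84 without 1 library, and MSX1 with R157F did not pass with the trend removed without WT replicate 2 (0.70). The next signs are of calls against WT, for members given library by library. They turned with the trend removed, with and without the block, for MCM6 (0.12 with R157K, 0.24 with R157F), GINS3 with R157K (0.013), POLA1 with R157F (0.0903) and CHAF1A with R157F (-0.0265). Without WT replicate 2 as well, they turned for MCM6 (0.0361 with R157K, 0.16 with R157F), POLA1 (0.068 with R157F) and RRM2 (0.13 with R157K, 0.0728 with R157F). Of the other members, E2F8 with R157K and MCM7 with R157F also turned with the trend removed, at the values given with those genes. Other causes of these shifts were not tested. TPM keep no depth, so no counting limit can be given.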
